A study of Rattus norvegicus with 15 samples.

Results

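Glycolysis and the transport of its fuel and end product were followed through 10 genes of rat dorsal root ganglion (DRG) cells given dbcAMP, a cAMP analog that crosses membranes. The genes were Slc2a1 and Slc16a3 (transporters) and Hk1, Hk2, Aldoa, Tpi1, Gapdh, Pgk1, Pkm and Ldha (enzymes), and every probe that the array's annotation ties to one of these symbols was taken, whatever its values. The choice of genes was made with earlier results of these data known. All 10 genes had a probe. They accounted for 62 of the 5088 probes: 9 genes had 1 probe each, and Gapdh had 53, of which 51 lay in the same well, A01, of plates 1 to 51.

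The treated cells had 1.5 mM dbcAMP in their medium for 1, 3, 6, 12 or 18 h, and the control cells had medium alone. Both came from L4 and L5 ganglia of juvenile rats, dissociated and cultured in Sato medium, so the RNA is that of neurons together with any glia and other cells of the ganglion in the dish. The labels mention myelin and poly-L-lysine as coatings, but not which array had which, and their treatment text has 0 h in the place of the group that they label 1 h. Each of the 15 arrays, 3 per time, set treated RNA (Cy5) against control RNA (Cy3), with the same dyes throughout, so a dye bias of a probe is part of its ratio. It drops out of a difference between times if it is constant. No source states whether the arrays of a time were separate cultures. The p-values thus tell only how arrays scatter within a time, pooled over all times, and that scatter may be technical.

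Cells take up glucose through facilitative transporters, trap it as glucose 6-phosphate with hexokinase and split it into triose phosphates. The lower enzymes turn these into pyruvate and make ATP. Pyruvate then enters mitochondria or becomes lactate, which leaves with a proton through monocarboxylate transporters, and in nerve this exchange of lactate between glia and axons is a known source of fuel. Cyclic AMP acts in part through protein kinase A and the transcription factor CREB, and many genes of the pathway are also known targets of hypoxia-inducible factor (HIF).

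Values below are log2 ratios of treated over control, so 0 means no difference and 1 a doubling. A probe was called when its adjusted p was under 0.05 in limma, with 1 mean per time, all 15 arrays in 1 fit and Benjamini-Hochberg adjustment over all probes tested at that time. All 62 probes had enough ratios to be tested at each time. The fit shares the spread of a probe over all times, which can understate the error at 18 h. Array weights, which fall as scatter grows, were 0.51 to 0.54 at 18 h and 1.47 to 2.14 at 1 h. With the arrays of 18 h alone, a fit with fewer arrays, 183 probes were called, against 1101 in the main fit. A ratio holds no level of expression, so neither the presence of a transcript nor the order of abundance of the genes can be read from it, and fewer cells of a type cannot be told apart from less RNA per cell.

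At 18 h, 5 of the 9 genes with a single probe were higher in treated cells and none was lower, that is 55.6% of them, against 10.6% of all probes tested that were higher (11.3% were lower, 22.0% in either direction). The 5 were Slc2a1, Slc16a3, Tpi1, Pgk1 and Ldha, and their mean folds ran from 1.44 to 2.35. The median of the 9 was 0.53, and that of all probes was 0.01. Since the genes were chosen with earlier results of these data known, these shares and medians are descriptions and not a test. Before 18 h the only member called was Slc2a1. It was called at 6 h, when 4.19% of all probes were called and 1.84% were higher, and at 12 h, when 8.58% were called and 3.81% were higher. No member was called at 1 h, with 2.33% of all probes called (0.732% higher), or at 3 h, with 2.87% called (0.931% higher). Without adjustment limma had 0 member probes under 0.05 at 1 h and 3 at 3 h, for Ldha, Slc16a3 and Slc2a1. The methods' t-test without adjustment had 8 of the 62 member probes at 1 h (4 higher, 4 lower) and 10 at 3 h. Of all 5088 probes it had 654 at 1 h and 758 at 3 h. At 6 h limma had 2 member probes under 0.05 without adjustment, and at 12 h it had 9, of which 4 were of single-probe genes. The unadjusted limma counts over all probes were not taken. After adjustment Hk1, Hk2, Aldoa, Pkm and Gapdh's separate probes did not pass at any time.

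**Figure D1:**
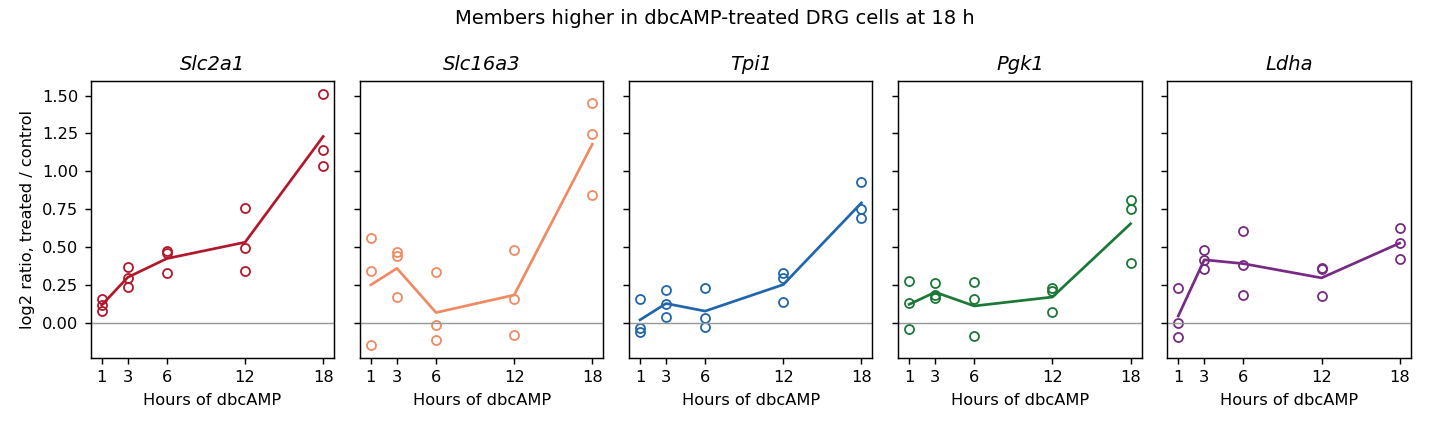
Treated over control as a log2 ratio (vertical axis, 0 marked) against hours of dbcAMP (horizontal axis) for the 5 genes called at 18 h. Circles are arrays (3 per time) and lines join the means. Slc2a1 had means of 0.12, 0.30, 0.42, 0.53 and 1.23, and Ldha was at 0.42 by 3 h. The mean of each of the 5 genes was highest at 18 h.

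Slc2a1 encodes GLUT1, the glucose transporter of many cell types that works without insulin. Its ratios were 0.16, 0.12 and 0.08 on the arrays of 1 h, and 0.24, 0.30 and 0.37 on those of 3 h. They were 0.46, 0.48 and 0.33 at 6 h, then 0.50, 0.76 and 0.34 at 12 h. At 18 h they were 1.14, 1.03 and 1.51. All 15 values were above 0, and the arrays of 18 h lay apart from all earlier ones, as those of 3 h did from those of 1 h. The share of all probes with arrays so apart was not counted, here or for the genes below. The mean of 6 h, 0.42 ± 0.08 (SD, n = 3), had an adjusted p of 0.0466, and that of 12 h, 0.53 ± 0.21, one of 0.00911. By 18 h treated cells had 2.35 times the control signal, a mean of 1.23 ± 0.25 with a 95% interval of 0.99 to 1.47 (adjusted p = 8.09e-06). The call at 6 h was lost whichever array of that time was left out (adjusted p between 0.106 and 0.16), and the call at 12 h was lost without array 1 (adjusted p = 0.0523) or array 2 (adjusted p = 0.0757) of that time.

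Slc16a3 encodes MCT4, a carrier that exports lactate from cells with high glycolysis. On the arrays of 18 h its ratios were 1.25, 0.84 and 1.45. Those of the 12 earlier arrays ranged from -0.15 to 0.56, with no overlap with 18 h. The values of 1 h alone were 0.34, 0.56 and -0.15, so the arrays of a time disagreed in sign for this probe. Its mean at 18 h was 1.18 ± 0.31 (SD, n = 3), with an interval of 0.83 to 1.52 (adjusted p = 0.000208). At 3 h the mean was 0.36, with an adjusted p of 0.442.

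Tpi1 encodes triosephosphate isomerase, which interconverts the triose phosphates that aldolase makes. It read 0.69, 0.75 and 0.93 at 18 h, and between -0.06 and 0.33 on the 12 earlier arrays, again without overlap. The mean at 18 h was 0.79 ± 0.12 (SD, n = 3), with an interval of 0.58 to 1.00 (adjusted p = 0.000103). At 12 h its values of 0.13, 0.29 and 0.33 were all above 0, and the mean of 0.25 did not pass (adjusted p = 0.132).

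Pgk1 encodes phosphoglycerate kinase, which makes the first ATP of the pathway. Its ratios at 18 h were 0.81, 0.40 and 0.75, against a range of -0.09 to 0.28 on the earlier arrays. All 3 arrays of 18 h were above every earlier one, with array 2 the lowest. The mean of 0.65 ± 0.22 (SD, n = 3) had an interval of 0.42 to 0.89 (adjusted p = 0.0009).

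Ldha encodes the subunit of lactate dehydrogenase that prevails where pyruvate is turned to lactate. Its course differed from those above in that its arrays of 18 h did not lie apart from all earlier ones. The ratios of Ldha were 0.23, -0.00 and -0.09 at 1 h, then 0.36, 0.41 and 0.48 at 3 h. All 3 arrays of 3 h were above 0 for the genes above as well, with means of 0.36 for Slc16a3, 0.30 for Slc2a1, 0.20 for Pgk1 and 0.13 for Tpi1. The same held for Hk2 (mean 0.12), a gene not called at any time, and the share of all probes was not counted. At 6 h the ratios of Ldha were 0.18, 0.60 and 0.39, and at 12 h 0.36, 0.17 and 0.36. The 3 arrays of 18 h, at 0.63, 0.42 and 0.53, overlapped those of 3 h and 6 h. The means of 3 h (0.42, adjusted p = 0.0508), 6 h (0.39, adjusted p = 0.0548) and 12 h (0.30, adjusted p = 0.101) missed the threshold. That of 18 h was 0.53 ± 0.10 (SD, n = 3), with an interval of 0.30 to 0.75 (adjusted p = 0.00289). At 3 h Ldha was called in 4 of 16 alternatives, among them centring on plate medians (adjusted p = 0.0428) and array weights (adjusted p = 0.00152). It was not called at 3 h whichever array of that time was left out (adjusted p from 0.179 to 0.353). At 6 h it was called in 0 of 16.

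Promoter stretches are shown for Slc2a1, Ldha and Tpi1 since these genes were called together at 18 h and their windows hold the letters searched. The sequences are RefSeq's on rat build GRCr8, each written 5′ to 3′ on the gene's own strand. Capitals mark matches, on either strand, to ACGTG or GCGTG (the core letters that HIF binds) and to TGACG (those that CREB binds).
Slc2a1: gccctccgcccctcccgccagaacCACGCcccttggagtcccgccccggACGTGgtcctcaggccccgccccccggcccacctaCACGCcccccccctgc
Ldha: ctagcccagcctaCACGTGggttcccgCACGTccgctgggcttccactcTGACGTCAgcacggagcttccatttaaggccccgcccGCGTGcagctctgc
Tpi1: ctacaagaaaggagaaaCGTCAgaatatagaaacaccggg
The Slc2a1 and Ldha lines are the 100 bases before the start site, at chr5:138002422-138002521 and chr1:106507992-106508091, both on the plus strand. The Tpi1 line, at chr4:159305229-159305268 on the minus strand, is a stretch of 40 bases around the single match of that window.

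In windows of 300 bases, from 250 before to 50 after a start, ACGTG was found in 19.3% of all 33469 RefSeq windows of the rat, GCGTG in 29.7% and TGACG in 21.2%. Of the 9 member genes with a window (12 windows, since Hk1 and Aldoa have several), 5 held ACGTG, 3 held GCGTG and 4 held TGACG. These counts are of genes with a match in any window, so they cannot be set directly against the shares of windows. Hk1 held ACGTG only in window 2 and Aldoa only in window 3. Ldha held the most, with 3, 3 and 2 matches. Its TGACG matches at 51 and 48 bases before the start overlap as a palindrome, as do ACGTG matches at 87 and 86. Slc2a1 held 1 ACGTG and 3 GCGTG but no TGACG, and Tpi1 held a single TGACG, 163 bases before its start. Genes that were not called had matches too: Hk1 had ACGTG and TGACG, and Aldoa had ACGTG. Gapdh, with 6 of its 51 A01 spots called at 18 h, had all 3 motifs. Slc16a3, with the second highest ratio, had none in its window, nor had Hk2 or Pkm. These matches describe letters only.

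The other single-probe genes were not called at any time. At 12 h Hk1 read 0.63, 0.12 and 0.21, a mean of 0.32 (adjusted p = 0.199 in limma), and Pkm had a mean of 0.35 (adjusted p = 0.315). Hk1 and Hk2 encode the hexokinases that trap glucose in the cell, Hk1 being the form usual in nervous tissue. Hk1 read -0.27, -0.23 and 0.45 at 18 h, a mean of -0.02 ± 0.40 (SD, n = 3) with an interval of -0.33 to 0.29 (adjusted p = 0.949). Hk2 read 0.06, -0.19 and 0.27 at 18 h, a mean of 0.05 ± 0.23 with an interval of -0.52 to 0.61 (adjusted p = 0.921). The arrays of 18 h fell on both sides of 0 for both genes. Array 2 of 12 h had the lowest value of any member probe, -1.39 for Hk2, while the other arrays of that time had 0.45 and 0.14.

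Aldoa encodes aldolase A, which splits the hexose, and Pkm encodes pyruvate kinase, which makes pyruvate. Aldoa read 0.33, 0.14 and 0.12 at 18 h, a mean of 0.20 ± 0.12 (SD, n = 3) with an interval of -0.13 to 0.53 (adjusted p = 0.391). Pkm read 0.33, 0.37 and -0.05 at 18 h, a mean of 0.22 ± 0.23 with an interval of -0.20 to 0.64 (adjusted p = 0.462). Both intervals include 0 and the mean of Ldha at 18 h.

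Aldoa, Pkm and the 2 Gapdh probes outside well A01 were high together on array 3 of 6 h, at 0.62, 0.53, 0.42 and 0.73. The other arrays of that time read 0.14 and -0.20 for Aldoa, 0.28 and -0.56 for Pkm, -0.31 and -0.40 for Gapdh probe 3B05, and -0.02 and -0.36 for Gapdh probe 3B07. The Gapdh spots of well A01 had a median of -0.03 on the same array. That array was among the 6 with a wide spread of ratios over all probes (SD 0.627 to 0.703, against 0.357 to 0.434 on the other 9); the others were arrays 1 and 2 of 12 h and the 3 of 18 h. Without array 3 of 6 h and the 2 wide arrays of 12 h, the call of Slc2a1 at 6 h was lost. That left 12 h with 1 array, on which Slc2a1 read 0.34. The wide arrays of 18 h were all kept, so the mean of 18 h could not change.

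**Figure D2:**
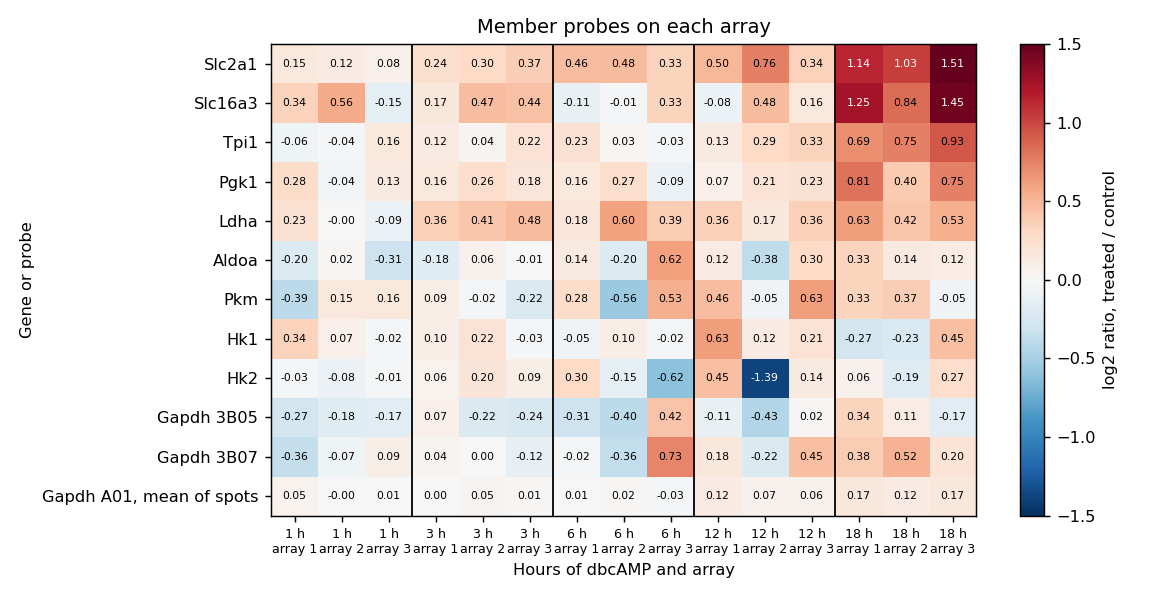
Treated over control as a log2 ratio (colour and printed value) for each member probe (rows) on the 15 arrays (columns, by hours of dbcAMP), with the mean of the 51 Gapdh spots of well A01 as the last row. The first 5 rows read at least 0.40, as rounded, on all 3 arrays of 18 h, and Aldoa, Pkm and both other Gapdh probes stand out on array 3 of 6 h.

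Gapdh encodes the dehydrogenase that follows Tpi1 in the pathway, and is often used as a constant reference for RNA. Its 51 spots in well A01 share 1 transcript in the annotation; whether they are 1 oligonucleotide is not given in the sources used here, and they are not replicates of a culture. Averaged within an array, they read 0.17, 0.12 and 0.17 at 18 h, and 0.12, 0.07 and 0.06 at 12 h. On the 9 arrays of 1 to 6 h the average lay between -0.03 and 0.05, so the arrays of 12 and 18 h were all above those of earlier times. The mean at 18 h was 0.16 ± 0.03 (SD, n = 3), with an interval of -0.02 to 0.33 when the average entered the fit as 1 value (adjusted p = 0.198). Of the single spots, 47 of 51 had a mean above 0 at 18 h, in a range of -0.15 to 0.36, and 6 (11.8%) were called higher, a share near the 10.6% of all probes. None was called at the other times.

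The remaining Gapdh probes, 3B05 and 3B07, read 0.34, 0.11 and -0.17, and 0.38, 0.52 and 0.20, at 18 h. Their means were 0.09 ± 0.26 (SD, n = 3, adjusted p = 0.718) and 0.37 ± 0.16 (adjusted p = 0.162). Probe 3B07 was thus positive on all 3 arrays and above the highest mean of the A01 spots, and passed only in the fit without the 3 wide arrays of 6 and 12 h (adjusted p = 0.0332).

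The single probes can be placed beside these spots, although the spread of 1 transcript does not measure the noise of another probe. Their SD within an array was 0.065 to 0.17. At 18 h the 5 called genes each lay above all 51 spots on each of the 3 arrays, where the highest spot was at 0.54, 0.36 and 0.38. Many other probes did so too, since the 90th percentile of all probes on these arrays was 0.72, 0.68 and 0.68. Slc2a1 was above all 51 on every array from 3 h on. Ldha was above all 51 on the 3 arrays of 3 h, above 50, 51 and 51 of them at 6 h, and above 49, 40 and 51 at 12 h. With each array centred on the median of these spots, the same 5 genes with single probes were higher at 18 h, at values from 0.37 for Ldha (adjusted p = 0.0176) to 1.07 for Slc2a1 (adjusted p = 1.66e-05).

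**Figure D3:**
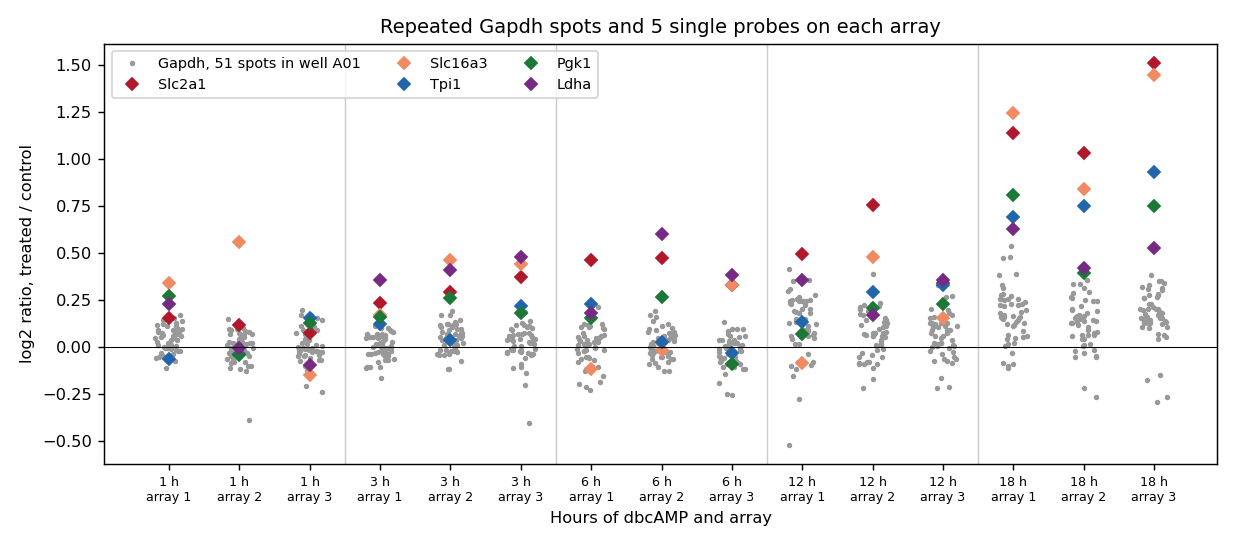
Treated over control as a log2 ratio (vertical axis) on each array (horizontal axis, by hours of dbcAMP) for the 51 Gapdh spots of well A01 (grey points, spread sideways for view) and for Slc2a1, Slc16a3, Tpi1, Pgk1 and Ldha (coloured diamonds). At 18 h the 5 diamonds lie above all grey points on each array.

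Plate medians over all probes differed at 18 h, and the border used here, between plates 35 and 36, was drawn with those medians known. On plates 1 to 35 the median was mostly above 0 (-0.08 to 0.24), and on plates 36 to 51 it was below 0 (-0.53 to -0.05). The A01 spots did not share this step. Their medians were 0.16 over the 35 spots of the first plates and 0.17 over the 16 of the later ones. All 9 single-probe genes sat on plates 3 to 30, and the plate medians at 18 h were 0.24 on plate 22 (Slc2a1 and Slc16a3), 0.13 on plate 16 (Tpi1) and 0.02 on plate 3 (Pgk1, Ldha, Hk1 and Pkm). Centred on plate medians, the 5 called genes were still called, with Slc2a1 at 0.99, Slc16a3 at 0.94, Tpi1 at 0.66, Pgk1 at 0.64 and Ldha at 0.51. The same centring raised the A01 calls to 15 higher and 1 lower.

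**Figure D4:**
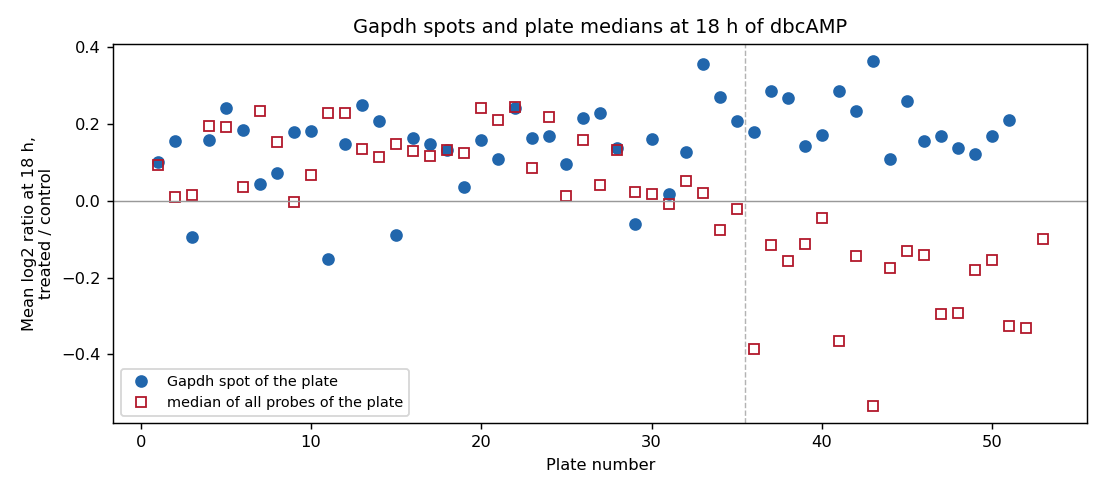
Mean log2 ratio of treated over control at 18 h (vertical axis, 3 arrays) against plate number (horizontal axis) for the Gapdh spot in well A01 of each plate (filled circles) and the median of all probes of that plate (open squares). The squares fall below 0 after plate 35 (dashed line), while the circles have medians of 0.16 before it and 0.17 after it.

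Change with time was tested as 18 h minus 1 h, a difference in which a constant dye bias cancels. Over all probes 2.74% were called, 1.18% as increases, and 3 of the 9 single-probe genes were called, all as increases. Slc2a1 differed by 1.11 ± 0.16 (SE, adjusted p = 0.00193), Slc16a3 by 0.93 ± 0.23 (adjusted p = 0.0455) and Tpi1 by 0.77 ± 0.14 (adjusted p = 0.0108). The differences of Pgk1 (0.53, adjusted p = 0.0888) and Ldha (0.48, adjusted p = 0.108) did not pass, nor did that of any Gapdh probe. In the F test for any difference among the 5 times, which called 1.87% of all probes, Slc2a1 (adjusted p = 0.012) and Tpi1 (adjusted p = 0.0356) passed. No member was called for 12 h minus 1 h (15 of 5002 probes called, or 0.3%). Without adjustment 1 member, Slc2a1, was under 0.05 in limma for that difference, at 0.41. The methods' t-test had 11 member probes and 372 of all probes under 0.05. All 3 calls of 18 h minus 1 h were lost when any replicate number was left out, which takes both groups to 2 arrays. The call of Slc16a3 held in 6 of 16 alternatives, and its difference was 0.59 without replicate number 3 and 1.25 without number 2.

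The rest of the pathway was followed in 7 lists of related genes, with 67 probes for 66 of the 107 genes listed. At 18 h 17 of these probes were higher and 5 were lower. Over all probes tested 10.6% were higher and 11.3% lower, and the counts of each list are to be read beside these shares. With arrays centred on the Gapdh A01 spots, which put the median of all probes at -0.15, the split of the list probes was 10 higher and 9 lower. That setting called 1309 of all probes, against 1101 in the main fit. Of the 22 calls, 9 were kept without any 1 array of 18 h, for Pfkl, Slc2a3, Slc2a4, Slc2a5, Hif1a, Hmox1, P4ha1 and both probes of Vegfa, and the other 13 were lost without at least 1. The 17 other glycolytic enzymes had a median of -0.05, with 3 higher and 2 lower. Those higher were Pfkl, the liver-type subunit of phosphofructokinase (0.59, adjusted p = 0.00155), Ldhb, the other main lactate dehydrogenase subunit (0.51, adjusted p = 0.0132), and Pgam1, a phosphoglycerate mutase (0.36, adjusted p = 0.0435). Those lower were the muscle mutase Pgam2 (-0.78, adjusted p = 0.0278) and Pfkfb2, which sets the level of fructose 2,6-bisphosphate (-0.74, adjusted p = 0.00708). Pfkl read 0.78, 0.34 and 0.66 at 18 h, and its difference from 1 h also passed (0.72, adjusted p = 0.0224). Of the probes of all 7 lists, only those of Pfkl and Hmox1 passed for that difference, in which a constant dye bias cancels. Ldhb had a mean of 0.43 at 1 h already, and lost its call without array 1 (0.42, adjusted p = 0.0936) or array 2 (0.50, adjusted p = 0.0558). Pgam1 lost its call whichever array was left out (adjusted p from 0.0897 to 0.166). Pgam2 was at -0.30 without array 2 (adjusted p = 0.272), which read -1.74, and Pfkfb2 was at -0.46 without array 1 (adjusted p = 0.0795), which read -1.31. The highest mean of the list, 1.03 for Pfkfb4, came from 1 array at 3.10 and was not called.

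Among 11 further glucose and monocarboxylate transporters the median was 0.34, with 4 higher and 1 lower. None of the 11 passed in limma for 18 h minus 1 h (adjusted p = 0.0644 for Slc2a3, 0.0888 for Slc2a5 and 0.107 for Slc2a4). Slc2a3, the neuronal glucose transporter GLUT3, read 1.03, 0.76 and 1.14 (mean 0.97, adjusted p = 0.00245). Slc2a5, the fructose transporter GLUT5, read 1.07, 0.85 and 0.93 (mean 0.95, adjusted p = 0.000935). Slc2a4, the insulin-responsive GLUT4, had as high a mean (0.96, adjusted p = 0.00847), but its arrays ranged from 0.30 to 2.01, and without array 2 the mean was 0.43 (adjusted p = 0.0286). Of the lactate carriers beside Slc16a3, Slc16a1 (MCT1) was higher, at 0.43, 0.07 and 1.16 (adjusted p = 0.0383). It had a mean of 0.75 at 6 h (adjusted p = 0.032). Its call at 18 h was lost after centring on plate medians (adjusted p = 0.0934), without array 1 (0.61, adjusted p = 0.0807) and without array 3 (0.25, adjusted p = 0.337). Slc16a7 (MCT2), the carrier typical of neurons, was lower, at -0.91, -0.19 and -0.64 (mean -0.58, adjusted p = 0.0195). Slc16a7 was not called without array 1 (-0.42, adjusted p = 0.155) or array 3 (-0.55, adjusted p = 0.0804). Slc16a8 (MCT3) read 1.67, 0.10 and 0.77 and was not called, and the carriers' chaperones Bsg (0.22) and Emb (0.34) were not called either.

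Genes that pass pyruvate to mitochondria had 1 call of 8, for the pyruvate dehydrogenase phosphatase Pdp2 (0.51, adjusted p = 0.0184), with a list median of 0.12. After plate centring the call of Pdp2 was lost (adjusted p = 0.22) and Pdha1, a subunit of pyruvate dehydrogenase, was called in its place (0.49, against 0.19 uncentred, adjusted p = 0.0116). Pdp2 was not called either without array 1 (0.42, adjusted p = 0.119) or array 2 (0.50, adjusted p = 0.0723). Pdk1, a kinase that inactivates pyruvate dehydrogenase, read 0.49, 0.42 and -0.84. In glycogen metabolism 2 of 13 probes were higher and 1 was lower, with a median of 0.09. Pgm1, which links glucose 1-phosphate to glycolysis (0.35, adjusted p = 0.0334), and the phosphorylase kinase subunit Phkg2 (0.41, adjusted p = 0.047) were higher, and both calls were lost after plate centring. Phkg2 was at 0.21 without array 3 (adjusted p = 0.348) and 0.44 without array 1 (adjusted p = 0.106), and Pgm1 was at 0.24 without array 1 (adjusted p = 0.226) and 0.39 without array 2 (adjusted p = 0.0644). The muscle phosphorylase Pygm was lower (-0.64, adjusted p = 0.034), with array 3 at 0.08. Its mean was -0.43 without array 1 (adjusted p = 0.239), -0.49 without array 2 (adjusted p = 0.185) and -1.003 without array 3 (adjusted p = 0.00241). The single probe of the pentose phosphate list, Tkt (0.41, adjusted p = 0.0962), and the 3 of gluconeogenesis were not called.

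The list of hypoxia-response genes outside glycolysis had 14 probes for 13 genes, with 7 higher, 1 lower and a median of 0.57, the highest of the lists with more than 1 probe. Hif1a, the regulated subunit of HIF, read 1.04, 1.01 and 1.11 at 18 h (adjusted p = 0.000721), and had a mean of 0.72 at 12 h (adjusted p = 0.0202). Its partner Arnt read 0.50, 0.59 and 1.49 at 18 h (mean 0.86, adjusted p = 0.00549), and 0.54 on average without array 3 (adjusted p = 0.0568). The 1 h mean of Arnt was 0.47, its 12 h mean was 0.88 (adjusted p = 0.0114), and 18 h minus 1 h was 0.38 (adjusted p = 0.52). Also higher at 18 h were the heme oxygenase Hmox1 (1.46, adjusted p = 5.59e-06), the collagen prolyl hydroxylase P4ha1 (0.86, adjusted p = 0.00377) and Mxi1, an antagonist of Myc (0.80, adjusted p = 0.00886). Mxi1 was not called without array 1 (0.67, adjusted p = 0.0725). For 18 h minus 1 h only Hmox1 of this list passed in limma (1.06, adjusted p = 0.00753), and Hif1a did not (0.93, adjusted p = 0.0586). Epas1 (HIF-2 alpha) was called on a mean of 0.71 (adjusted p = 0.0384) that came mainly from array 3, at 1.69, with the others at 0.28 and 0.18. It was at 0.23 without array 3 (adjusted p = 0.374), and missed the threshold after plate centring (adjusted p = 0.0506). The 2 probes for the growth factor Vegfa disagreed: 25C10 was higher at 18 h (0.81, adjusted p = 0.000414), and 52C12 was lower (-1.37, adjusted p = 0.000414) and had a mean of -1.24 at 1 h. Adm, Epo, Edn1, Bnip3l, Vhl and Egln3 were not called, with means from -0.11 for Bnip3l to 0.42 for Egln3, but Epo (-0.02) was called after plate centring (0.51, adjusted p = 0.0142).

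**Figure D5:**
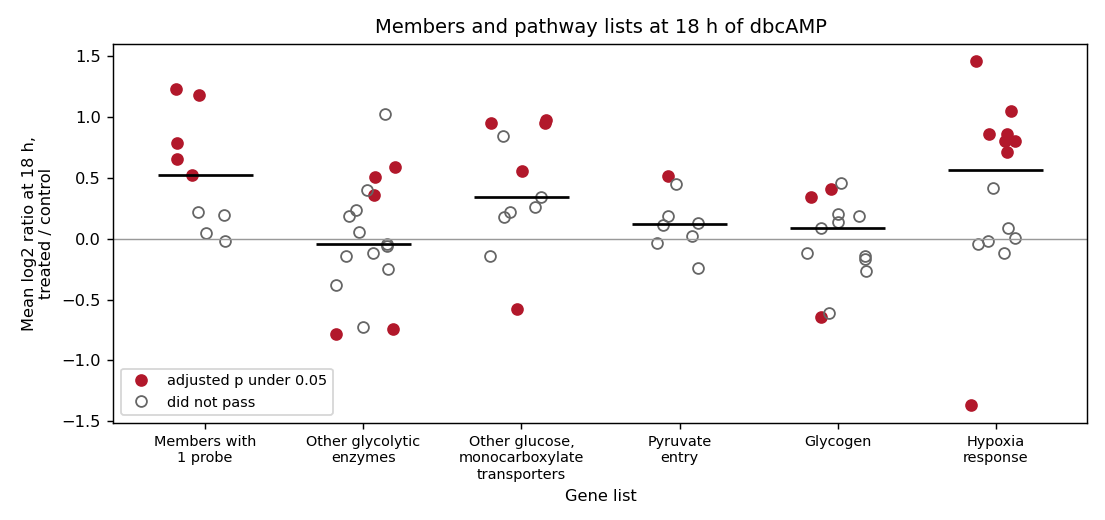
Mean log2 ratio of treated over control at 18 h (vertical axis, 3 arrays) for the members with 1 probe and the probes of 5 lists (horizontal axis, points spread sideways for view). Filled points had an adjusted p under 0.05 in limma, open points did not, and bars are medians: 0.53 for the members, -0.05 for other glycolytic enzymes, 0.34 for other transporters and 0.57 for the hypoxia list.

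Since the dishes may hold several cell types, their markers were read at 18 h beside these results. Over all probes tested 10.6% were higher and 11.3% lower at that time. Of 23 probes for sensory neurons 3 were higher and 3 lower (median -0.08), and of 17 for Schwann cells and satellite glia 2 were higher and 4 lower (median -0.17). Fibroblasts had 1 higher and 2 lower of 8 (median -0.13), macrophages 1 and 1 of 7 (median -0.04), and endothelium none of 7 (median 0.04). The part of cell composition in the ratios of the members was not tested.

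The probes nearest to each of 4 members were found by the root mean square difference in log2 ratio over the 15 arrays, among 4271 probes of named genes with all ratios. Nearest to Slc2a1 were Plat, tissue plasminogen activator (0.235), a probe of the metallothionein Mt1 (0.267) and the thrombin receptor F2r (0.269). Slc16a3 was nearest to the arginase Arg1 (0.276), then to the amino acid transporter Slc6a20a (0.301) and to Slc2a1 itself (0.304). Tpi1 was nearest to Pdpn, podoplanin (0.165), with its pathway neighbour Pgk1 next (0.168) and another Mt1 probe after it (0.18). Ldha had Tcn2, a cobalamin carrier (0.178), Grina (0.185) and the replication protein Rpa2 (0.192). These distances stand against 0.657 for Slc2a1, 0.613 for Slc16a3, and 0.39 for Tpi1 and for Ldha when each is measured from 0. They are descriptions over arrays that share their control and dye design.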

How the data were processed

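RNA of treated and control cultures was labelled by the authors with a dendrimer system and hybridised together to spotted oligonucleotides. The deposited values were linear ratios of treated (Cy5) over control (Cy3), 1 per probe and array. How background was treated and arrays were normalised before deposit is not given in the sources used here. Deposited ratios were put on the log2 scale with no further scaling (median ratios 0.997 to 1.02; 28 to 105 ratios missing per array). Probes were named through the platform annotation (4423 with 1 symbol, 663 with none, 2 with several), whose gene IDs matched GRCr8 for 4375 probes.

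Tests used limma 3.58.1 (lmFit, eBayes) in R 4.3.3, two-sided, on probes with at least 2 of 3 ratios at a time. The fit was also run on simulated data in which the spread of a probe was the same at all times. That run therefore cannot show how far the shared spread understates the error at 18 h. Plots used matplotlib 3.10.9. All members were named, and of the lists every probe called at 18 h; others named were chosen after their values were seen. Members and lists were chosen with earlier results of these data known. Alternatives were centring, scaling, plate medians, array weights, a robust prior (statmod 1.5.0), filters, a replicate block, leaving out arrays, each time alone and the methods' t-test. Averaging or centring on the A01 spots and leaving out 3 wide arrays were added after seeing the data. The number of arrays limits the precision.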

Additional observations from a re-analysis of the deposited data

Results flagged for a closer look

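The ratios of 3 members differed between 18 h and 1 h of dbcAMP by the test of that difference in limma. Slc2a1 had a mean of 1.23 at 18 h and of 0.12 at 1 h, a difference of 1.11 (adjusted p = 0.00193). Slc16a3 had 1.18 at 18 h and 0.25 at 1 h, a difference of 0.93 (adjusted p = 0.0455). Tpi1 had 0.79 at 18 h and 0.02 at 1 h, a difference of 0.77 (adjusted p = 0.0108). For each of these genes all 3 arrays of 18 h were above all 3 of 1 h. The share of all probes with arrays so apart was not counted. Ratios spread wider over all probes at 18 h (SD 0.645 to 0.703) than at 1 h (SD 0.357 to 0.394). The limma test of the difference called 2.74% of all probes. With all arrays of 1 replicate number left out, the adjusted p lay between 0.0635 and 0.121 for Slc2a1, between 0.116 and 0.313 for Slc16a3 (differences of 0.59 to 1.25) and between 0.0937 and 0.198 for Tpi1.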

How the results depend on the processing

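The 5 single-probe calls at 18 h were kept in number when any 1 array of 18 h was left out (5 to 5), under plate medians and with arrays centred on the Gapdh A01 spots, but fell to 2 with the arrays of 18 h alone and to 0 in the methods' t-test after adjustment (5 unadjusted); Ldha lost its call with arrays scaled to a common spread (adjusted p = 0.102). Over the single probes, 378 comparisons with an alternative kept direction and call, 45 lost the call, 10 gained it and 9 turned sign.

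Over all 62 member probes, the count at 18 h was 11 and became 4 under scaling to a common spread, 21 under plate medians, 5 with array weights, 2 with the arrays of the time alone, 5 with the A01 spots averaged, 0 in the methods' t-test adjusted and 24 unadjusted, and 5 to 8 leaving out an array. At 6 h the count of 1 became 0 under centring on medians, plate medians, the replicate block, the arrays of the time alone, leaving out any array (0 to 0), the adjusted t-test and without the 3 wide arrays, and 4 unadjusted. At 12 h the count of 1 became 0 with array weights, the arrays of the time alone and the adjusted t-test. It became 0 to 1 leaving out an array, and 9 unadjusted. Without the 3 wide arrays 12 h had only 1 array, so no count is given. At 3 h the count of 0 became 2 under scaling, 1 under plate medians, 3 with weights, 1 with the time alone and 10 unadjusted. At 1 h it became 8 unadjusted. Of all 5088 probes the unadjusted t-test called 654, 758, 461, 489 and 907 at 1, 3, 6, 12 and 18 h.

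For 18 h minus 1 h, adjusted tests kept the call in 11 of 16 alternatives for Slc2a1, 10 for Tpi1 and 6 for Slc16a3. The count of 3 became 0 under scaling, 1 with these times alone, 25 unadjusted and 0 to 0 leaving out a replicate number. For 12 h minus 1 h the count of 0 became 11 unadjusted. The unadjusted t-test called 795 of all probes for 18 h minus 1 h and 372 for 12 h minus 1 h. For the F test the count of 2 became 0 under scaling, 1 under plate medians, with weights, with the replicate block and with centring on the A01 spots, and 0 to 0 leaving out a replicate number. The 22 pathway calls became 9 under scaling, 12 with weights, 4 with 18 h alone, 0 in the adjusted t-test, 12 unadjusted, and 13 to 18 leaving out an array; with centring on the A01 spots they split into 10 higher and 9 lower, against 17 and 5.

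Values near 0 turned sign. At 18 h Hk2 (0.05) ranged from -0.064 to 0.16, Hk1 (-0.02) from -0.25 to 0.11 and Gapdh probe 3B05 (0.09) from -0.033 to 0.22 leaving out an array; without array 2 of 18 h Hk1 was at 0.089. Hk2 was at -0.11 and 3B05 at -0.070 with centring on the A01 spots. For 18 h minus 1 h, Hk2 (0.09) ranged from -0.0072 to 0.19, and was at -0.052 with centring on the A01 spots, and Hk1 (-0.15) ranged from -0.46 to 0.082. The causes were not tested.

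Replicate numbers did not pair the arrays: over 30 pairs of same-numbered arrays the correlation of deviations lay between -0.05 and 0.07, and 3 of 15 arrays were nearest to their own number. With the replicate number as a block, 7 member probes were called at 18 h, 0 at 6 h and 1 in the F test.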
